A study of Mus musculus with 6 samples.

Results

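A set of 34 mouse genes for making fatty acids, storing them as triglyceride and releasing them again was followed after small interfering RNA knockdown of Ring1a and Ring1b. The genes were chosen by symbol as a list, with earlier results of these data known, and all 34 symbols were found among the 20325 genes of the deposited expression table. RNA was sequenced from C3H10T1/2 cells, a multipotent mesenchymal line derived from C3H mouse embryos, at passage 10 to 15. The 3 knockdown samples were parental cells given small interfering RNAs against Ring1a and Ring1b, and the 3 control samples were parental cells given a scrambled small interfering RNA. Ring1a and Ring1b, encoded by Ring1 and Rnf2, add ubiquitin to histone H2A as the catalytic subunits of the Polycomb complex PRC1. The labels name a medium with fetal bovine serum and no adipogenic hormone mix for either group. The labels number the samples without saying that they were separate cultures.

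Cells make fatty acids in the cytosol from citrate, which Acly turns into acetyl-CoA, Acaca turns into malonyl-CoA and Fasn builds into a saturated chain that elongases and desaturases then modify. Fatty acids taken up or made are coupled to CoA, joined to glycerol by the enzymes Gpam, Agpat2, Lpin1 and Dgat1 or Dgat2, and kept in lipid droplets coated with perilipins. Lipases release them again in sequence, and in fat tissue these genes rise together as progenitors become adipocytes.

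Each value below is a read count per gene as estimated and median-normalized by the authors, here called a normalized count. Estimated depth, from the value that 1 read takes in each library, was 23196468, 4580087 and 18538594 reads in knockdown replicates 1, 2 and 3, and 51801653, 5447198 and 15117745 in control replicates 1, 2 and 3. Knockdown replicate 2 stood apart. Its log2 values correlated with those of the other 5 libraries at 0.821 to 0.867 across genes, against 0.944 to 0.994 for all other pairs, and the share of 84 ribosomal protein genes in its total was 20.7%, while it was 5.08 to 5.82% elsewhere. Results are therefore given with and without it. All 10 mesenchymal markers were above a floor of 3 reads in all 6 libraries, with summed normalized counts of 355699 to 633373 in the knockdowns and 528286 to 577899 in the controls. Rnf2 stood at 129, 76.5 and 152 in the knockdowns, against 815, 829 and 799 in the controls. It was 6.83-fold lower (log2 fold change −2.82, SE 0.28, limma adjusted p = 0.00946; −2.53 and 1.98e-09 without knockdown replicate 2). The Rnf2 call held without knockdown replicate 3 and was lost at 0.0646 without knockdown replicate 1 and at 0.0735, 0.0742 and 0.0852 when control replicate 1, 2 or 3 was left out. Ring1 stood at 162, 268 and 186 in the knockdowns, against 336, 386 and 374 in the controls. Its knockdown values all lay below its controls, but the difference missed the threshold of 0.05 with all 6 libraries (log2 fold change −0.86, SE 0.23, limma adjusted p = 0.104) and passed without knockdown replicate 2 (−1.06, SE 0.10, 3.86e-06).

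Among the lipid genes, the fatty acid carrier Fabp5 rose 3.04-fold, and 3 genes fell: Dgat2, which makes triglyceride, 3.96-fold, the droplet coat gene Plin4 2.51-fold, and Acaca, which commits acetyl-CoA to fatty acid synthesis, 1.90-fold. Of the 34 genes, 27 had a mean of at least 10 and were tested, and the other 7 were too low. Among the 27, 1 was higher and 3 were lower (limma, adjusted p under 0.05), which is 3.70% and 11.1%. Over all 12085 genes tested, 3.20% were higher and 1.78% lower, 4.98% in all. The share of higher lipid genes was thus near that of all genes, and the share of lower ones above it, with no test of that difference. The median log2 fold change was −0.25 over the 27 and 0.01 over all genes tested, with 9 of the 27 above 0 and 18 below. The 3 knockdowns lay all above the 3 controls in 6 of the 27 and all below in 11, against backgrounds of 20.5% and 23.7% of all genes tested. In bulk RNA such as this, fewer cells expressing a gene and less RNA per cell cannot be told apart.

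Without knockdown replicate 2, 5 of the 27 were higher and 12 were lower, which is 18.5% and 44.4%. In that fit 23.8% of 11995 genes were higher and 26.1% lower, 49.9% in all, so the count of higher lipid genes lay under the background share. The members that passed there were Fabp5, Lpl, Fabp4, Me1 and Mgll, all higher, and Acaca, Acly, Fasn, Elovl5, Elovl6, Scd2, Dgat1, Dgat2, Plin2, Plin3, Plin4 and Lipe, all lower. The median log2 fold change of the 27 was −0.11, against −0.02 for all genes. Leaving out any other library lowered the count. Limma then called 0 lipid genes without knockdown replicate 1, Dgat2 alone without knockdown replicate 3, and 0 without control replicate 1, 2 or 3, with 8, 10, 6, 6 and 6 of the 27 at an unadjusted p under 0.05. Over all genes in those fits it was 2065 of 12081, 2482 of 12089, 1495 of 12116, 1529 of 12123 and 1475 of 12131. With all 6 libraries it was 11 of the 27 and 2473 of 12085.

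**Figure D1:**
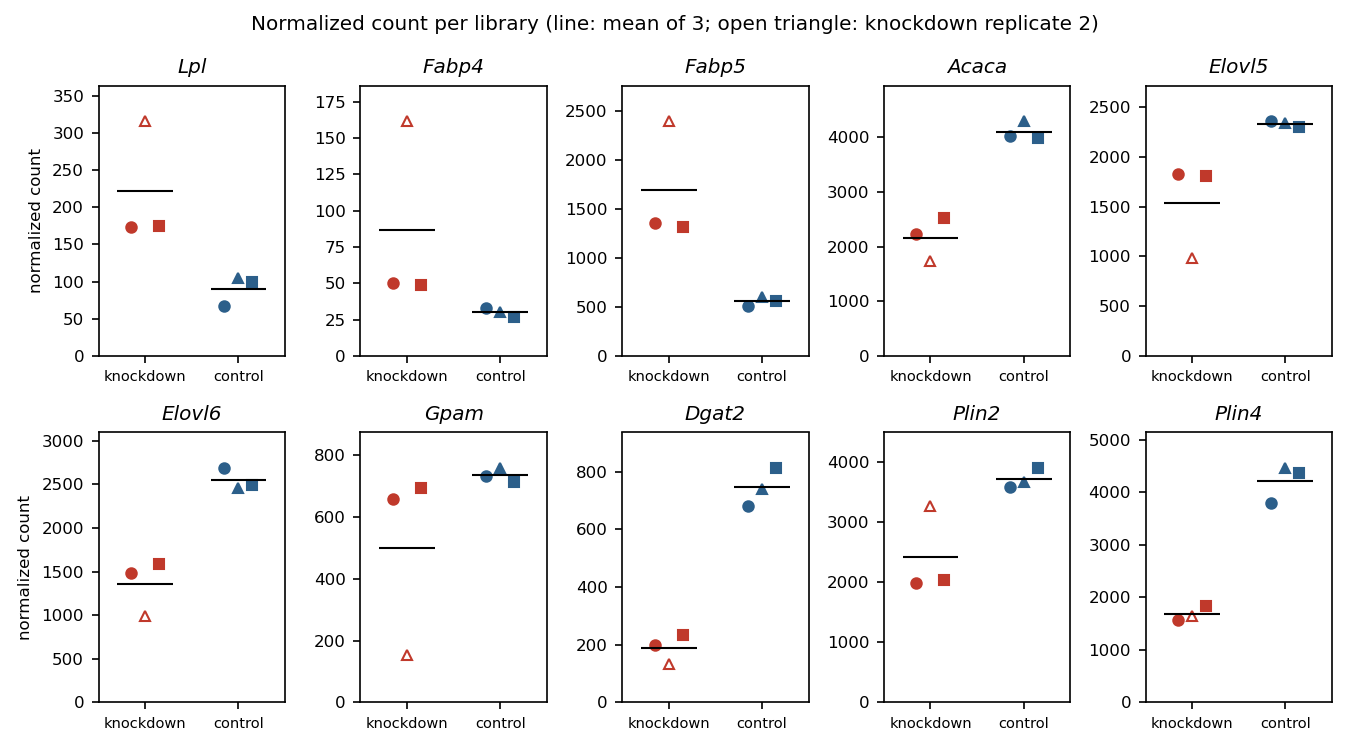
Normalized counts of the 10 lipid genes shown in full, 1 panel per gene with its own linear axis from 0 and 1 point per library, knockdowns left and controls right. The 10 were picked for a call, or for groups apart with a log2 fold change of at least 0.58 in size. Fabp5, Lpl and Fabp4 are higher in every knockdown library than in every control. Acaca, Dgat2, Plin4, Elovl5, Elovl6, Gpam and Plin2 are lower in every knockdown library. Knockdown replicate 2 lies away from the other knockdowns in several panels, by log2 difference most in Gpam and Fabp4.

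The 3 genes for secreted adipocyte products were at or near 0. Adipoq, which encodes adiponectin, was listed at 1.13, 0 and 1.42 in the knockdowns, against 11.1, 5.01 and 9.03 in the controls. All 3 knockdown values lay below their libraries' own 3-read floors of 1.70, 12.8 and 2.13, while control replicates 1 and 3 were above theirs and control replicate 2 was not. Adipoq was not tested for its low mean. It is the only one of the 34 genes in the authors' deposited table of 323 differential genes, where its fold is 0.103. The name of that table ends in FC4, which points to a cut on fold size. Dgat2, Fabp5, Plin4 and Acaca, at 3.96-, 3.04-, 2.51- and 1.90-fold, may be absent from it by the size of their change alone. Lep, which encodes the satiety hormone leptin, and Cfd, which encodes the complement protease adipsin, were listed at 0 in all 6 libraries. A count of 0 allows up to 1.70, 12.8 and 2.13 in the knockdowns and 0.777, 7.52 and 2.71 in the controls. Of 10 adipocyte markers outside the 34 genes, Aqp7, Pparg and Cebpa were above the floor in all 6 libraries, 6 (Retn, Adrb3, Pck1, Cidea, Ucp1 and Sucnr1) were below it in all 6, and Adrb3 was at 0. Nnat was above the floor in some libraries and not in all. The normalized counts of the 10 markers summed to 729 to 841 in the knockdowns and 1198 to 1211 in the controls, and Pparg and Cebpa made up most of each sum. Pparg, the only one of the 4 tested markers called lower, averaged 280 in the knockdowns and 661 in the controls. Cebpa averaged 470 in the knockdowns and 511 in the controls (limma adjusted p = 0.648).

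All 3 tested genes for fatty acid uptake and transport had higher values in every knockdown than in every control, and 1 of them passed with all libraries. Over all genes tested, the knockdowns lay all above the controls in 20.5% and all below in 23.7%. Among the 21 tested genes in the list of other uptake and activation genes, they lay all above in 4 and all below in 5. Fabp5, which carries fatty acids through the cytosol, stood at 1358, 2397 and 1321 in the knockdowns, against 505, 604 and 559 in the controls. The groups did not overlap, and knockdown replicate 2 was the highest. Fabp5 averaged 1692 ± 611 in the knockdowns and 556 ± 49.6 in the controls (SD, n = 3 each), with a log2 fold change of 1.55 (SE 0.27, limma adjusted p = 0.0358). Leaving out knockdown replicate 2 gave 1.27 (SE 0.08, limma adjusted p = 1.08e-07). In fits that left out another library the call was lost, at 0.109 without knockdown replicate 1, 0.0824 without knockdown replicate 3, and 0.179, 0.159 and 0.185 without control replicate 1, 2 and 3 (limma adjusted p). Fabp5 has processed pseudogenes, between which the read assignment may split counts.

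Lpl, the lipase that frees fatty acids from circulating lipoproteins, stood at 173, 316 and 175 in the knockdowns, against 67.0, 105 and 98.8 in the controls. All knockdowns lay above all controls, with knockdown replicate 2 far above the other knockdowns. The log2 fold change of 1.25 did not pass (SE 0.32, limma adjusted p = 0.099), and without knockdown replicate 2 it was 0.97 and passed (SE 0.18, limma adjusted p = 0.00107). Fabp4, the fatty acid carrier best known from adipocytes, macrophages and endothelium, stood at 50.3, 162 and 49.0 in the knockdowns, against 33.1, 30.1 and 27.1 in the controls. All knockdowns lay above all controls, and knockdown replicates 1 and 3 were far below knockdown replicate 2 and closer to the controls. The log2 fold change of 1.27 did not pass (SE 0.50, limma adjusted p = 0.233), and without knockdown replicate 2 it was 0.71 and passed (SE 0.21, limma adjusted p = 0.0142). The scavenger receptor gene Cd36 was listed at 0 in all 6 libraries. Slc2a4, the insulin-regulated glucose transporter gene, was listed at 4.01, 0 and 5.68 in the knockdowns, against 3.88, 7.52 and 0.903 in the controls, too low to test.

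Macrophages and endothelium also express Fabp4, and most of their markers were low. Of 10 macrophage markers, Cd68, Lyz2 and Cd14 were above the floor in all 6 libraries and Emr1 and Tyrobp were at 0, with summed normalized counts of 97.4 to 221 in the knockdowns and 101 to 126 in the controls. Of 10 endothelial markers, Tek and Egfl7 were above the floor in all 6 and Tie1 and Cldn5 were at 0, with sums of 293 to 850 in the knockdowns and 160 to 165 in the controls. Egfl7 alone stood at 158, 735 and 144 in the knockdowns, against 44.5, 65.1 and 58.7 in the controls (limma adjusted p = 0.141). Tek stood at 148, 102 and 134 in the knockdowns, against 106, 87.7 and 90.3 in the controls, and its groups overlapped (log2 fold change 0.42, limma adjusted p = 0.316). Without knockdown replicate 2 Egfl7 was higher with a log2 fold change of 1.43 (limma adjusted p = 4.05e-05) and Tek with 0.57 (0.00474), as Fabp4 and Lpl were. In that fit 23.8% of all genes were higher. The part of these markers in the values of Fabp4 and Lpl was not tested. Of 8 epithelial markers, Cdh1 was above the floor in all 6 libraries, with sums of 17.8 to 42.5 in the knockdowns and 15.0 to 31.6 in the controls.

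The 3 long-chain acyl-CoA synthetase genes, whose enzymes couple fatty acids to CoA, did not pass in either fit. Acsl1 had a log2 fold change of −0.25 (limma adjusted p = 0.563), Acsl3 of −0.31 (0.473) and Acsl4 of −0.06 (0.834). In all 3 genes the value of knockdown replicate 2 was the lowest of the 6 libraries, with 929 for Acsl3, against 1579 and 1543 in the other knockdowns and 1637, 1593 and 1645 in the controls. Without that library the log2 fold changes of Acsl1, Acsl3 and Acsl4 were 0.03, −0.06 and 0.10.

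In de novo synthesis, Acaca fell and the other 5 genes did not pass. Acaca, which encodes acetyl-CoA carboxylase 1, stood at 2229, 1739 and 2527 in the knockdowns, against 4029, 4295 and 3994 in the controls. The groups lay far apart, and knockdown replicate 2 was the lowest. Acaca averaged 2165 ± 398 in the knockdowns and 4106 ± 165 in the controls (SD, n = 3 each), with a log2 fold change of −0.94 (SE 0.18, limma adjusted p = 0.0463). It was lower without knockdown replicate 2 too (−0.79, SE 0.06, limma adjusted p = 1.06e-06). The call lay close to the threshold and was lost without a filter on low values (limma adjusted p = 0.0552), with upper-quartile scaling (0.0502) or scaling to equal totals (0.185). It was also lost without knockdown replicate 1 or 3 (0.156 and 0.0856) and without control replicate 1, 2 or 3 (0.209, 0.222 and 0.222).

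Acacb, which encodes the second carboxylase, tied to control of fatty acid oxidation at mitochondria, stood at 75.8, 80.8 and 82.4 in the knockdowns, against 83.4, 55.1 and 85.8 in the controls. The groups overlapped (log2 fold change 0.12, limma adjusted p = 0.754). Fasn, fatty acid synthase, stood at 7330.4, 7445 and 8987 in the knockdowns, against 11193, 12104 and 11972 in the controls. The groups lay apart but the log2 fold change of −0.58 did not pass (SE 0.17, limma adjusted p = 0.134), and without knockdown replicate 2 it was −0.53 and passed (limma adjusted p = 0.00025). Acly, ATP citrate lyase, had a log2 fold change of −0.51 (limma adjusted p = 0.168), with 4161 to 5463 in the knockdowns and 6549 to 6983 in the controls. It passed without knockdown replicate 2 (−0.41, limma adjusted p = 0.00021). Me1, the malic enzyme that supplies NADPH, was at 1586 to 1867 in the knockdowns and 1240.2 to 1343 in the controls, so that its groups lay apart in the other direction (log2 fold change 0.44, limma adjusted p = 0.157). It too passed without knockdown replicate 2 (0.50, limma adjusted p = 1.9e-05). Srebf1, which encodes the transcription factor that drives these genes, had a log2 fold change of −0.17 (limma adjusted p = 0.584) and of 0.00 without knockdown replicate 2.

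**Figure D2:**
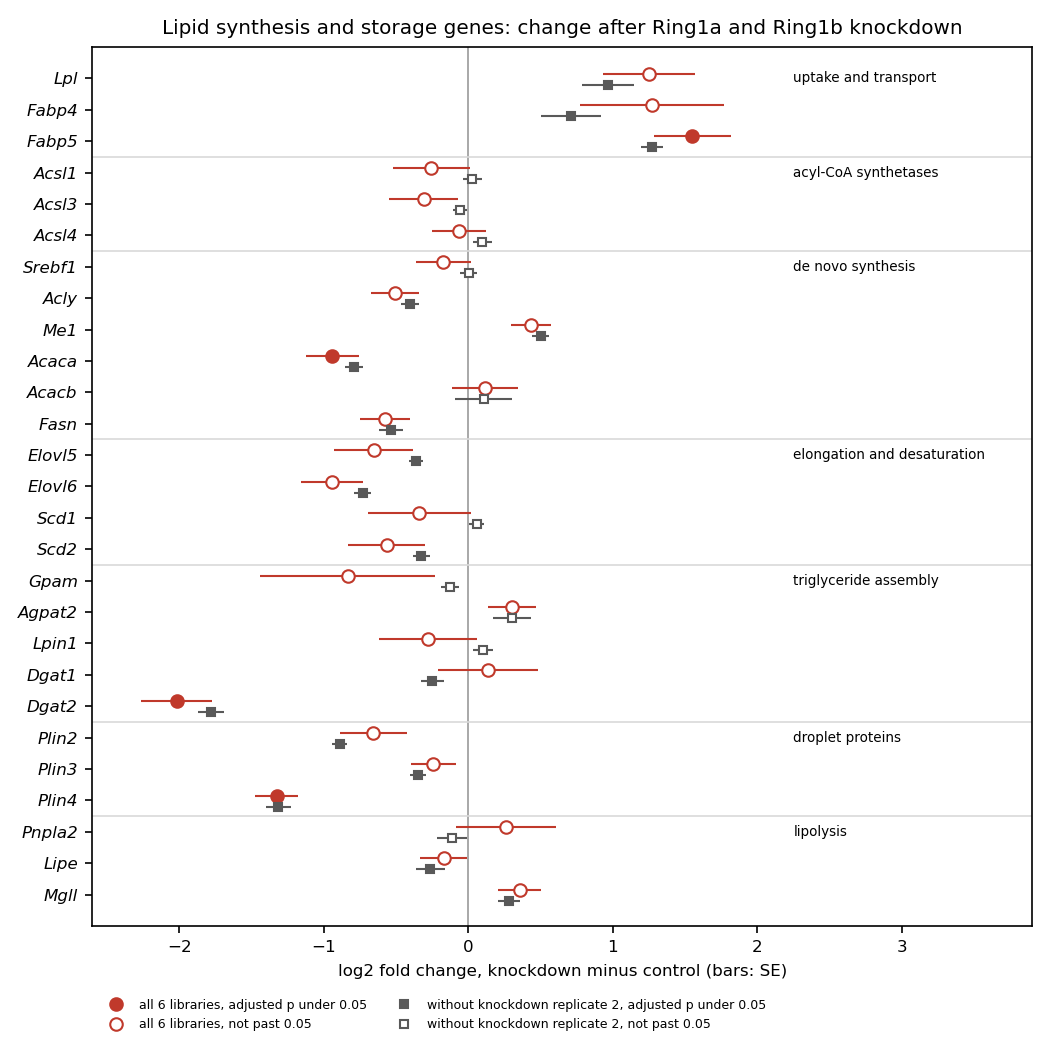
Log2 fold change with its SE (knockdown minus control, values plus 1 before the log), for the 27 tested lipid genes by role, with all 6 libraries and without knockdown replicate 2. With all libraries Fabp5 passed above 0 and Acaca, Dgat2 and Plin4 passed below 0, and the SEs are smaller without knockdown replicate 2.

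Of the 4 elongation and desaturation genes, 0 passed with all libraries in limma, where 1 had an unadjusted p under 0.05, and 3 were lower without knockdown replicate 2. Elovl6, which elongates saturated and monounsaturated fatty acids, stood at 1481, 986 and 1588 in the knockdowns, against 2689.6, 2456 and 2492 in the controls. The groups lay well apart, and the log2 fold change of −0.94 equalled that of Acaca with a larger SE of 0.22 (limma adjusted p = 0.0778). Leaving out knockdown replicate 2 gave −0.73 (SE 0.06, limma adjusted p = 1.08e-06). Elovl5, which elongates polyunsaturated fatty acids, stood at 1826, 982 and 1811 in the knockdowns, against 2358, 2340.2 and 2301 in the controls. All knockdowns lay below all controls, and knockdown replicate 2 was the lowest. The log2 fold change was −0.66 (SE 0.27, limma adjusted p = 0.255) with all libraries and −0.36 (SE 0.05, limma adjusted p = 7.37e-05) without it.

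The stearoyl-CoA desaturases place the first double bond in a saturated chain. Scd2, the most abundant of the 34 genes, stood at 32062, 19637 and 32814 in the knockdowns, against 39916, 41897 and 40008 in the controls. The groups lay apart (log2 fold change −0.57, SE 0.27, limma adjusted p = 0.300), and the difference passed without knockdown replicate 2 (−0.32, limma adjusted p = 0.00073). Scd1 stood at 5879, 2559 and 5770 in the knockdowns, against 5512, 5795 and 5486 in the controls. Knockdown replicates 1 and 3 lay close to the controls and knockdown replicate 2 far below (log2 fold change −0.34, limma adjusted p = 0.562; 0.06 and 0.387 without knockdown replicate 2). Scd1 and Scd2 are close paralogs, so reads from shared stretches may be split between them.

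In triglyceride assembly, 1 of 5 genes passed. Dgat2, which joins the last fatty acid to diacylglycerol and is tied to newly made fatty acids, stood at 200.8, 132 and 232 in the knockdowns, against 683, 742 and 814 in the controls. The groups lay far apart, with the lowest value in knockdown replicate 2. Dgat2 averaged 188 ± 51.4 in the knockdowns and 746 ± 65.7 in the controls (SD, n = 3 each), with a log2 fold change of −2.02, the furthest from 0 of the 27 (SE 0.25, limma adjusted p = 0.0152). Without knockdown replicate 2 it was −1.78 (SE 0.09, limma adjusted p = 4.2e-08). The call was lost without knockdown replicate 1 (0.0807), without control replicate 1, 2 or 3 (0.0931, 0.0996 and 0.116) and with scaling to equal totals (0.0563).

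Dgat1, which catalyses the same step with an unrelated protein, stood at 325, 710 and 309 in the knockdowns, against 361, 376 and 394 in the controls. Knockdown replicates 1 and 3 were below all controls and knockdown replicate 2 above them. The log2 fold change was 0.14 (SE 0.35, limma adjusted p = 0.804) and turned to −0.25 without knockdown replicate 2, where it passed as lower (limma adjusted p = 0.0215). Per kilobase of transcript, the ratio of Dgat2 to Dgat1 was 0.516, 0.155 and 0.627 in the knockdowns, against 1.58, 1.65 and 1.72 in the controls. Dgat2 thus outnumbered Dgat1 in every control and was outnumbered in every knockdown.

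Gpam, the mitochondrial acyltransferase that starts glycerolipid synthesis, stood at 658, 153 and 692 in the knockdowns, against 733, 759 and 715 in the controls. Its groups lay apart, but knockdown replicates 1 and 3 were close to the controls and knockdown replicate 2 far below. The log2 fold change was −0.84 (SE 0.60, limma adjusted p = 0.452) with all libraries and −0.12 (SE 0.06, limma adjusted p = 0.12) without knockdown replicate 2. Agpat2, which adds the second fatty acid, was at 165 to 176 in the knockdowns and 119 to 151 in the controls (log2 fold change 0.30, limma adjusted p = 0.356). Lpin1, the phosphatidate phosphatase, had a log2 fold change of −0.28 (limma adjusted p = 0.613), with 0.10 without knockdown replicate 2. Neither passed in either fit.

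Among the droplet proteins, 1 of 3 tested genes fell. Plin4, a perilipin that coats nascent droplets, stood at 1563, 1646 and 1827 in the knockdowns, against 3789.6, 4468 and 4373 in the controls. The knockdown values were close together, knockdown replicate 2 included, and all lay far below the controls. Plin4 averaged 1679 ± 135 in the knockdowns and 4210.1 ± 367 in the controls (SD, n = 3 each), with a log2 fold change of −1.33 (SE 0.15, limma adjusted p = 0.0114). The fit without knockdown replicate 2 gave −1.31 (SE 0.09, limma adjusted p = 1.6e-06). The call was lost without knockdown replicate 1 or 3 (0.0807 and 0.0526) and without control replicate 1, 2 or 3 (0.0794, 0.0895 and 0.113).

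Plin2, the perilipin found on droplets in most cell types, stood at 1979.5, 3261 and 2034 in the knockdowns, against 3584, 3673 and 3905 in the controls. All knockdowns lay below all controls, and knockdown replicate 2 was the closest to them. The log2 fold change of −0.66 did not pass (SE 0.23, limma adjusted p = 0.191), and without knockdown replicate 2 it was −0.89 and passed (SE 0.05, limma adjusted p = 1.25e-07). Plin3, another widely expressed perilipin, was at 1971 to 2508 in the knockdowns and 2409 to 2636 in the controls (log2 fold change −0.24, limma adjusted p = 0.413; −0.35 and 0.000283 without knockdown replicate 2). Per kilobase, Plin4 over Plin3 was 0.485, 0.416 and 0.587 in the knockdowns, against 0.996, 1.08 and 1.05 in the controls. Plin4 over Plin2 was 0.259, 0.166 and 0.295 in the knockdowns, against 0.347, 0.399 and 0.367 in the controls. Plin4 was thus lower relative to both other perilipins in every knockdown library. Plin1, the perilipin of mature adipocytes, was listed at 0 in all 6 libraries. Cidec, a protein of large droplets, was listed at 0, 4.25 and 0 in the knockdowns, against 0.259, 0 and 0 in the controls, below the floor in all 6.

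None of the 3 lipolysis genes passed with all libraries (limma; 0 had an unadjusted p under 0.05). Pnpla2, the lipase that removes the first fatty acid, stood at 274, 604 and 281 in the knockdowns, against 260.5, 326 and 316 in the controls. Knockdown replicates 1 and 3 lay within the control range (log2 fold change 0.26, limma adjusted p = 0.635; −0.11 and 0.41 without knockdown replicate 2). Lipe, the hormone-sensitive lipase for diacylglycerol, had a log2 fold change of −0.17 (limma adjusted p = 0.532), and without knockdown replicate 2 it was lower at −0.26 (limma adjusted p = 0.0453). Mgll, which cleaves the last fatty acid from monoacylglycerol, was at 448 to 531 in the knockdowns and 363 to 395 in the controls (log2 fold change 0.36, limma adjusted p = 0.248). Mgll was higher at 0.28 without knockdown replicate 2 (limma adjusted p = 0.00811).

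Levels of different genes were compared per kilobase of transcript. In the controls the order began with Scd2 at 7444 normalized counts per kilobase, then Plin2 at 1971, Acly at 1546, Fasn at 1169.8 and Scd1 at 1158, and among the tested genes it ended with Lpl at 22.0 and Acacb at 8.82. Fasn and Scd1 did not differ beyond their spread over the controls. Fabp5 had rank 2 in the knockdowns, next after Scd2, at 1714, against rank 9 in the controls, at 563. Dgat2 had rank 24 in the knockdowns, at 83.3, against rank 14 in the controls, at 329.9. Fabp5 made up 8.52, 16.9 and 8.04% of the summed level of the 34 genes in the knockdowns, against 2.65, 3.01 and 2.84% in the controls. Scd2 made up 36.4, 25.1 and 36.1% in the knockdowns, against 37.9, 37.8 and 36.7% in the controls. Together the 34 genes took 0.547, 0.282 and 0.572% of the deposited total in the knockdowns, against 0.682, 0.707 and 0.688% in the controls.

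**Figure D3:**
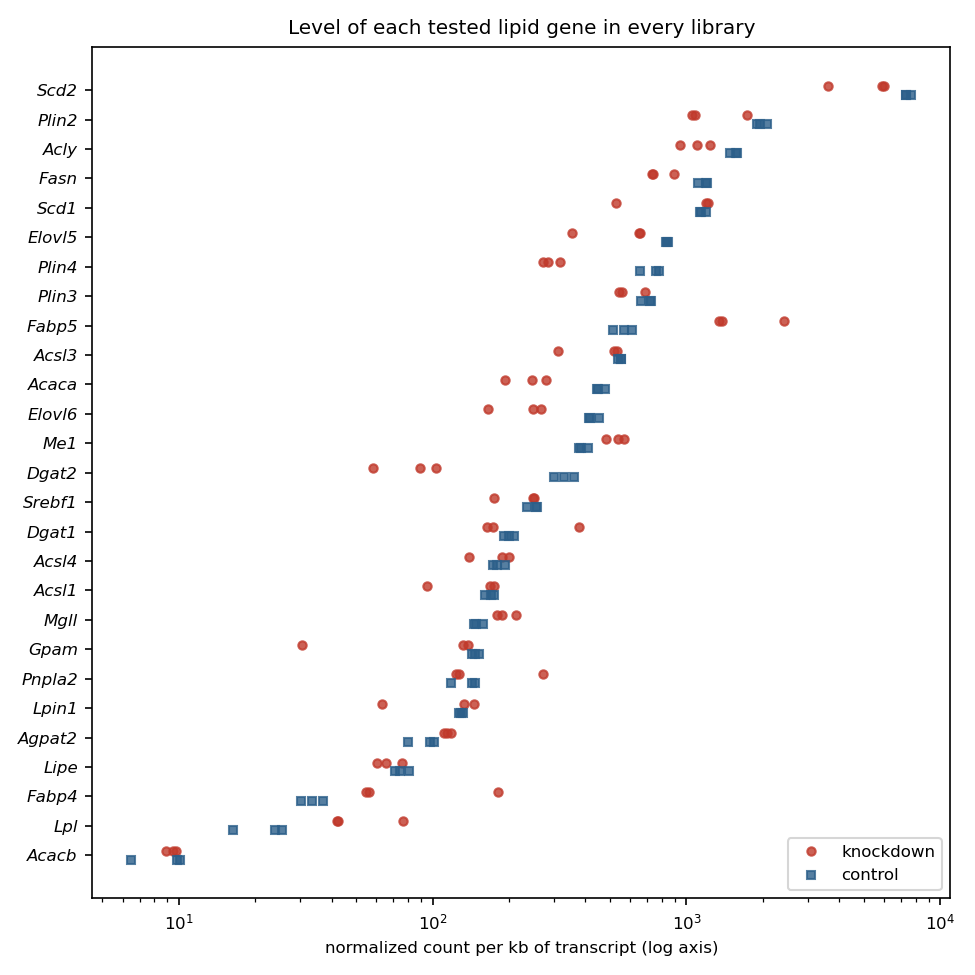
Normalized counts per kilobase of transcript, log axis, for the 27 tested lipid genes in the order of their control level, with 1 point per knockdown library and 1 per control library. Scd2 leads in both groups, Fabp5 averages 1714 in the knockdowns against 563 in the controls, and Dgat2 averages 83.3 in the knockdowns against 329.9 in the controls.

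Knockdown replicate 2 differed from the other knockdowns with transcript length. Over all tested genes with a length, the median log2 difference between it and the mean of knockdown replicates 1 and 3 was 1.11 in the bin with the shortest transcripts (median 1379 nt), 0.13 and −0.37 in the middle bins (2421 and 3557 nt) and −0.96 in the longest (5736 nt). The lipid genes did likewise. The 9 tested members shorter than the median of 2950 nt had a median difference of 0.70, with 6 above 0 and 3 below, and the 18 longer ones of −0.46, with 4 above 0 and 14 below. Of the 27 members, knockdown replicate 2 was above all the other 5 libraries in 6 (Lpl, Fabp4, Fabp5, Dgat1, Pnpla2 and Mgll) and below all of them in 13. Those 13 were Acsl1, Acsl3, Acsl4, Srebf1, Acly, Acaca, Elovl5, Elovl6, Scd1, Scd2, Gpam, Lpin1 and Dgat2. Among the 4 genes that passed with all libraries, Plin4 was within the range of the others in knockdown replicate 2.

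**Figure D4:**
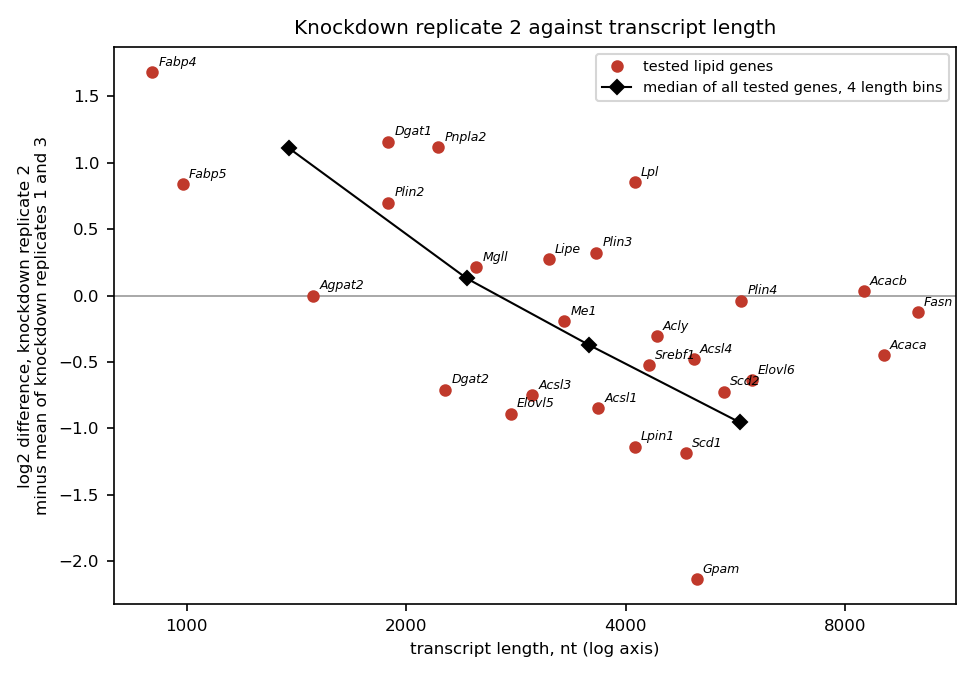
Log2 difference of knockdown replicate 2 from the mean of knockdown replicates 1 and 3 against transcript length in nucleotides, log axis, for the 27 tested lipid genes, with the medians of 4 length bins of all tested genes. The bin medians run from 1.11 at the short end to −0.96 at the long end, and most long members lie below 0.

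Promoter windows, 250 bases before to 50 after the transcription start, were read from RefSeq (build GRCm38.p6) for 26 of the 34 genes. Lpl, Fabp4, Fabp5, Slc2a4, Scd1, Scd2, Dgat1 and Dgat2 were not among them. The windows of Plin4 (chr17:56109733-56110032, minus strand), which fell, Plin2 (chr4:86670010-86670309, minus strand), its relative that passed without knockdown replicate 2 and not with all libraries, and Fasn (chr11:120824498-120824797, minus strand), the synthase itself, are shown 5′ to 3′ on the gene's strand. Capitals mark matches to CCAAT on either strand (ATTGG on the other), CACGTG and GGGCGG, so that 2 overlapping matches in Fasn form 1 run.
Plin4: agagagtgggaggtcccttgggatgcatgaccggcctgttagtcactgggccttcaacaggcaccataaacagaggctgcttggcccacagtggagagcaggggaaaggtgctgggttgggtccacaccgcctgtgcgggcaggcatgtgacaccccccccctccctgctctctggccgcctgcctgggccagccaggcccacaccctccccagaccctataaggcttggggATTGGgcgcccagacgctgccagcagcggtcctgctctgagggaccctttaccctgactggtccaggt
Plin2: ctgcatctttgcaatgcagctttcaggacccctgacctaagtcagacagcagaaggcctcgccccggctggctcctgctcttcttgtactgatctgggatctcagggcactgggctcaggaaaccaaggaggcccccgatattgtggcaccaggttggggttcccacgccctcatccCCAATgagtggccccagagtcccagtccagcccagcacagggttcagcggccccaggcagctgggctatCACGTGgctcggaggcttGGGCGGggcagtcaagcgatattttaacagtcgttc
Fasn: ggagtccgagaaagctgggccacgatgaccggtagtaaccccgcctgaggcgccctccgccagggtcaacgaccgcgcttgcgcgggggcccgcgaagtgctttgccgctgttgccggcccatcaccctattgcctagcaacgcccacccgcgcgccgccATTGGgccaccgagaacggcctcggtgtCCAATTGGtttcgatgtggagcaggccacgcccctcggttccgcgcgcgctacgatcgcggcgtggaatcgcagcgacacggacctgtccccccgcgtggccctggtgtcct

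The Plin4 window held 1 match, an ATTGG that starts 18 bases before the transcription start. Plin2 held a CCAAT 73 bases before the start, a CACGTG 4 bases before it and a GGGCGG just after it. Fasn held 3 CCAAT matches, starting 90, 62 and 59 bases before the start, and no CACGTG or GGGCGG. RefSeq lists more than 1 start for some genes, so the 26 genes had 34 windows. Counted by window, CCAAT was found on either strand in 15 of the 34 and in 37.4% of 32851 windows of all genes, GGGCGG in 17 (35.7% of all) and CACGTG in 4 (Elovl5, Lipe, Mgll and Plin2; 7.15% of all). The sterol regulatory element TCACNCCAC was found in 1 window, of Acsl1 (1.24% of all), and TTGCNNAA, a C/EBP motif, in 4 (Cidec, Gpam, Lep and Plin1; 10.8% of all). These are matches of letters, both strands searched. CpG dinucleotides numbered 7 in the Plin4 window, 10 in Plin2 and 39 in Fasn, against a median of 22 (quartiles 15 and 30) over 8631 tested genes, taking for each gene the window with the most. The 20 tested members with a window had a median of 19.5 (1 to 42), and the 6 untested ones, among them Adipoq with 0, Plin1 and Cfd with 2 and Cd36 with 3, had a median of 2.5 (0 to 19).

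Other lipid genes were followed in 6 lists of 153 genes, of which 133 were tested. Of these 2 were higher and 5 were lower (1.5% and 3.76%, against 3.20% and 1.78% of all genes). Without knockdown replicate 2, 20 were higher and 48 lower (15.0% and 36.1%, against 23.8% and 26.1%). The median log2 fold change over the 133 was −0.02. G0s2, the protein inhibitor of the lipase encoded by Pnpla2, stood at 53.7, 93.5 and 56.8 in the knockdowns, against 438, 441 and 466 in the controls. It fell 6.59-fold, with no overlap (log2 fold change −2.75, SE 0.25, limma adjusted p = 0.00886). In its list of triglyceride and droplet genes 0 of 19 were higher and 1 lower. In the authors' deposited table its fold is 0.154.

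Of 21 tested genes for fatty acid uptake and activation, 1 rose and 2 fell. Fabp3, the fatty acid carrier of heart and muscle, stood at 79.2, 242 and 79.6 in the knockdowns, against 14.8, 15.0 and 19.9 in the controls (log2 fold change 2.74, limma adjusted p = 0.0383; fold 8.24 in the authors' deposited table). Like Fabp5 it was high in every knockdown and highest in knockdown replicate 2. Angptl4, a secreted inhibitor of the lipase encoded by Lpl, stood at 61.6, 63.8 and 45.5 in the knockdowns, against 319.5, 263 and 227 in the controls. It fell 4.74-fold (log2 fold change −2.23, limma adjusted p = 0.00946; fold 0.214 in the authors' deposited table). Acsbg1, an acyl-CoA synthetase, stood at 15.3, 8.50 and 12.1 in the knockdowns, against 51.0, 42.6 and 49.7 in the controls (log2 fold change −1.94, limma adjusted p = 0.0214), and its value in knockdown replicate 2 was below that library's floor.

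Of 26 fatty acid oxidation genes, Hadh, a mitochondrial dehydrogenase of beta-oxidation, fell and 0 rose. It stood at 608, 417 and 625 in the knockdowns, against 1204, 1075 and 1131 in the controls (log2 fold change −1.07, limma adjusted p = 0.0442), and without knockdown replicate 2, 1 of the 26 was higher and 13 were lower. Of 16 other desaturases and elongases, Elovl7, an elongase of long saturated chains, rose and 0 fell. It stood at 96.6, 157 and 66.5 in the knockdowns, against 29.5, 25.0 and 27.1 in the controls (log2 fold change 1.85, limma adjusted p = 0.0426). Of 25 regulators, 0 were higher and Pparg, the nuclear receptor that directs adipocyte formation, was lower. It stood at 326, 217 and 298 in the knockdowns, against 616, 692 and 675 in the controls (log2 fold change −1.25, limma adjusted p = 0.0281). Of 26 genes that supply acetyl-CoA and NADPH, 0 passed in limma (3 at an unadjusted p under 0.05). The one with the highest mean normalized count, not corrected for length, was the transketolase gene Tkt. It stood at 4744, 7244 and 4425 in the knockdowns, against 3926, 3805 and 4259 in the controls (log2 fold change 0.42, limma adjusted p = 0.356). When knockdown replicate 2 was left out, 2 of these 26 were higher and 12 lower. That fit gave 5 higher and 4 lower desaturases and elongases, 5 higher and 6 lower regulators, 4 higher and 8 lower uptake and activation genes, and 3 higher and 5 lower triglyceride and droplet genes. Over all genes in that fit, 23.8% were higher and 26.1% lower. The share of lower genes was above this for oxidation, supply, and uptake and activation genes, and near it in the other lists. The share of higher genes was below it in every list but desaturases and elongases. These differences were not tested.

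The 7 calls in these lists were made without knockdown replicate 2 as well. Each was lost without knockdown replicate 1, with limma adjusted p of 0.0578 for G0s2, 0.0675 for Angptl4, 0.0798 for Acsbg1, 0.0877 for Pparg, 0.105 for Fabp3, 0.13 for Hadh and 0.147 for Elovl7. Without knockdown replicate 3 those of G0s2 and Angptl4 held, and the others were lost at 0.0598 for Elovl7, 0.0828 for Acsbg1, 0.0856 for Fabp3, 0.0887 for Pparg and 0.0982 for Hadh. Leaving out any 1 control lost all 7, with adjusted p from 0.0707 for G0s2 without control replicate 1 to 0.221 for Hadh without control replicate 3.

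**Figure D5:**
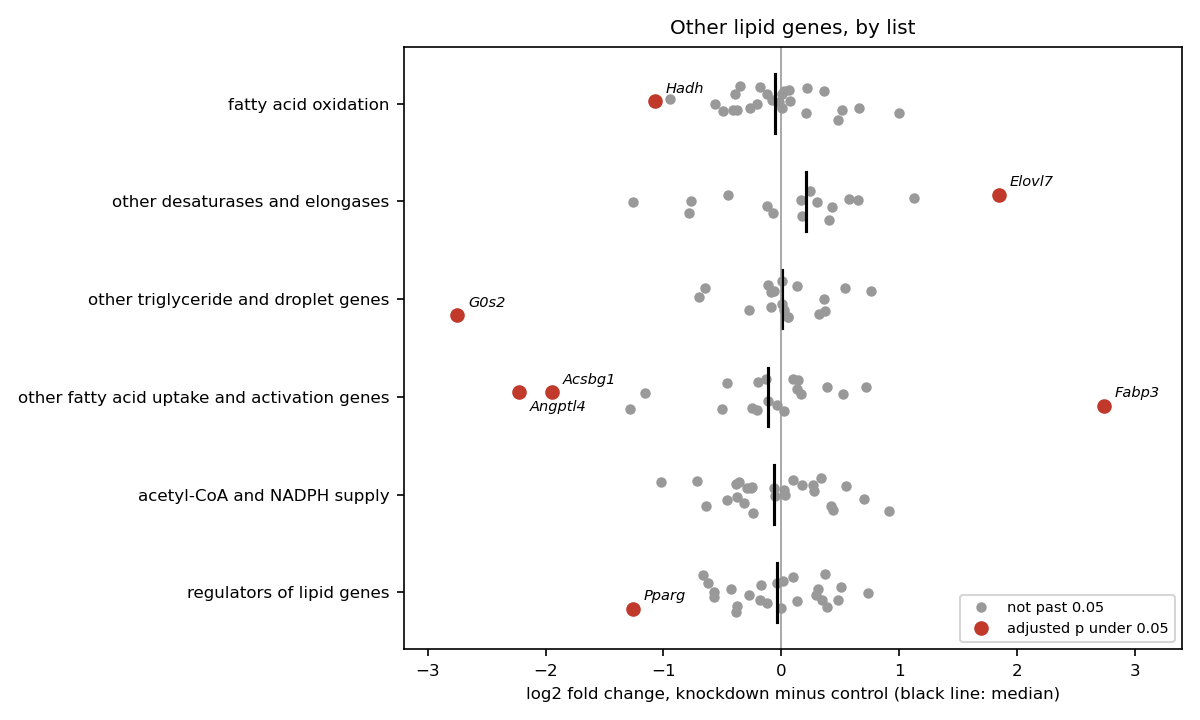
Log2 fold change, knockdown minus control, of every tested gene in the 6 lists of other lipid genes, 1 point per gene, with the called genes marked by name and the list medians as bars. Fabp3 and Elovl7 lie above 0, and G0s2, Angptl4, Acsbg1, Pparg and Hadh below.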

How the data were processed

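RNA of 6 samples was sequenced, 3 knockdown and 3 control, grouped by their titles. Total RNA was extracted with Trizol and made into Illumina TruSeq libraries, per the labels' protocols. The submitters' processing notes name Bowtie 1.0.0, RSEM 1.2.12 and build mm9. Neither annotation nor strand setting is given in the sources used here, and reads of a gene and its antisense or overlapping neighbour may be mixed. The authors deposited a normalized signal for 20325 genes. These values are estimated read counts divided by a factor per library (median normalization, per the table's name). They also deposited a list of 323 genes with values of its own and a fold. That fold is the ratio of group means after a small constant is added. It was recomputed from the list's own values within 0.1% for all 323. The values printed here give somewhat other ratios, such as 8.075 for Fabp3 where the list has 8.24. The deposited totals were 13115793, 19471638 and 13173339 in the knockdowns and 13413520, 13649251 and 13655904 in the controls.

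Depth was estimated from the value of 1 read in each library. Values of 20 reads or fewer were whole within 0.1 read in 88.3 to 90.4% of cases, too few to run a count test. Floors of 3 reads and intervals of counting cover counting error only. The lowest chi-square per degree of freedom within a group was 1.51, so no libraries were merged.

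Genes with a mean of at least 10 were tested with limma 3.58.1 (R 4.3.3) after adding 1 and taking log2 (trend and robust empirical Bayes, two-sided, Benjamini-Hochberg over all 12085 genes). The fit was first run on simulated data, in which the spread of each gene was drawn independently. That simulation could not carry a shift shared by genes within a library, such as that of knockdown replicate 2 with transcript length. Log2 fold changes are differences between group means on the log2 scale after adding 1, which understate those of low genes, and standard errors are the model's. Values printed as fold are ratios of group means of the normalized counts, so they can differ somewhat from the log2 fold changes. Groups of 3 against 3 allow no exact permutation p below 0.1. The labels do not tie the samples to separate cultures, so p-values measure a spread that may be technical. Deviations from the group means correlated at 0.17, −0.05 and −0.05 across genes for samples with the same number 1, 2 and 3. For pairs with other numbers the correlations ran from −0.17 to 0.11. Knockdown replicate 2 enters the mean from which each knockdown deviates, so these values cannot decide whether samples were paired by number.

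Named in full are Ring1, Rnf2, every called member and every member with groups apart and a log2 fold change of at least 0.58 in size. From each list of other lipid genes up to 3 called genes are named, or the one with the highest mean normalized count if none was called. The members and lists were chosen with earlier results of these data known. Of the pathway symbols, 3 were matched by an older name. Transcript lengths are medians over the protein-coding transcripts that GENCODE M21 pairs with a curated RefSeq mRNA, used for lengths alone. Alternatives were another pseudocount, filter, scaling, variance model and library weights, the replicate number as a block, and each library left out.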

Additional observations from a re-analysis of the deposited data

How the results depend on the processing

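All counts are of limma calls at an adjusted p under 0.05, with 387 higher and 215 lower genes, 1 and 3 of the 27 lipid genes, and 2 and 5 of the 133 other lipid genes as reported. A pseudocount of 5, a model without trend or robust options, upper-quartile scaling and the filters kept these counts within 1.5 times, except that 1 other lipid gene was higher at a mean of at least 50. Lipid genes lower were 2 without a filter and 2 with upper-quartile scaling, where Acaca was lost. Scaling to equal totals, under which the median over all genes was −0.14 on the log2 scale, gave 184 higher and 118 lower genes, 1 lipid gene lower (Plin4), and 3 other lipid genes lower. Library weights gave 4214 higher and 4596 lower genes, 6 and 13 lipid genes, and 39 and 61 other lipid genes. A block for the replicate number gave 0 limma calls in each of the 6 counts, with 1866 genes and 7 of the 27 at an unadjusted p under 0.05. Over the 6 fits that each left out a library, the counts ran from 0 to 2855 higher and 0 to 3136 lower genes, 0 to 5 and 0 to 12 lipid genes, and 0 to 20 and 0 to 48 other lipid genes, the upper ends without knockdown replicate 2. Without knockdown replicate 1 there were 7 higher and 21 lower genes, and without knockdown replicate 3, 37 and 57, with Dgat2 the 1 lipid gene called. Without control replicate 1, 2 or 3 limma made 0 calls, with 1495, 1529 and 1475 genes under 0.05 before adjustment. Of the 602 calls with all libraries, 598 were made again without knockdown replicate 2, in the same direction.

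Of 517 alternative values of the 37 named genes, 500 kept their sign and 17 did not, all in genes not called with all 6 libraries. Of these 17, Dgat1 passed as lower with library weights (limma adjusted p = 0.00109) and without knockdown replicate 2 (0.0215), and the others did not pass. Library weights and leaving out knockdown replicate 2 turned Acsl1 to 0.0023 and 0.028, Acsl4 to 0.0613 and 0.0965, Scd1 to 0.0793 and 0.0576, Lpin1 to 0.0389 and 0.1029, Dgat1 to −0.2188 and −0.2476 and Pnpla2 to −0.1193 and −0.1094. Srebf1 turned to 0.0035 without knockdown replicate 2. Equal totals turned Dgat1 to −0.0035 and Acacb to −0.0242, and Acacb was −0.0205 with library weights and −0.0865 without control replicate 2. Over the fits that each left out a library, the log2 fold changes ran from −0.408 to 0.028 for Acsl1, −0.1669 to 0.0965 for Acsl4, −0.2628 to 0.0035 for Srebf1, −0.0865 to 0.2281 for Acacb, −0.5421 to 0.0576 for Scd1, −0.4968 to 0.1029 for Lpin1, −0.2476 to 0.35 for Dgat1 and −0.1094 to 0.4584 for Pnpla2. The cause of these changes was not tested. Depth limits Slc2a4 and Cidec, and it limits Adipoq most in knockdown replicate 2 and control replicate 2, the 2 shallowest libraries. Estimated reads of Adipoq were 2, 0 and 2 in knockdown replicates 1, 2 and 3, against 43, 2 and 10 in control replicates 1, 2 and 3. With a floor of 12.8 in knockdown replicate 2 a level of a few reads was not detectable there.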

Other observations

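Acsl6 and Mogat2, both named after their values were seen, were too low to test. Acsl6, an acyl-CoA synthetase gene best known from brain, was listed at 15.8, 4.25 and 12.1 in the knockdowns, against 0.777, 0 and 0 in the controls, and its fold in the authors' deposited table is 40.3. Its knockdown value was below the floor in knockdown replicate 2. Mogat2, an acyltransferase of the monoacylglycerol route to triglyceride, was listed at 11.9, 21.3 and 14.2 in the knockdowns, against 4.92, 2.51 and 4.53 in the controls. The fatty acid desaturase genes Fads1, Fads2 and Fads3, also named after their values were seen, did not pass with all libraries and passed without knockdown replicate 2. Fads1, the most abundant of them, stood at 6070.3, 4149 and 6206 in the knockdowns, against 7185, 7347 and 7632 in the controls (log2 fold change −0.46, limma adjusted p = 0.289; −0.27 and 0.0013 without knockdown replicate 2). Fads2 stood at 2729, 1433 and 2974 in the knockdowns, against 3711, 4059 and 3805 in the controls (log2 fold change −0.77, limma adjusted p = 0.234; −0.44 and 7.55e-05 without knockdown replicate 2). Fads3 stood at 3351, 3237 and 3168 in the knockdowns, against 1970.0, 2330.2 and 2263 in the controls (log2 fold change 0.58, limma adjusted p = 0.0847; 0.58 and 4.56e-05 without knockdown replicate 2).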
